A study of Rattus norvegicus with 47 samples.

Results

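The 9 genes described here build the red blood cell: the beta- and alpha-globin genes Hbb and Hba1, the heme synthesis gene Alas2, the globin chaperone gene Ahsp, the membrane and skeleton genes Slc4a1, Ank1, Gypc and Epb42, and the mitochondrial iron importer gene Slc25a37. They were chosen by name, with earlier results of these data known, and all 9 were found among the 30045 gene lines of each count table. The animals were male rats of the inbred strain Fischer 344, described as healthy and weighing 250 to 300 g, and RNA was sequenced from their lungs and whole blood. Control rats breathed filtered air and treated rats breathed crystalline silica (Min-U-Sil 5, a fine quartz dust) at 15 mg/m3, in both cases by whole-body inhalation for 6 h a day on 5 days. Lung and blood were taken 1 day or 6 months later. No genetic change or other agent is named for any group, their age is not given in the sources used here, and the chambers are not named, so that treatment and chamber cannot be told apart. Each of the 8 groups of tissue, time and treatment held 6 animals with 1 library each; only the air lung group at 6 months was smaller, with 5.

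Red cells lose their nucleus in the bone marrow, and the youngest of them in blood, the reticulocytes, still carry messenger RNA for hemoglobin and for the membrane. Hemoglobin is a tetramer of alpha and beta chains that each hold a heme. ALAS2 catalyses the first and rate-limiting step of heme synthesis in erythroid cells, mitoferrin-1 (Slc25a37) brings iron into the mitochondria for it, and AHSP binds free alpha chains. Band 3 (Slc4a1), an anion exchanger, is tied to the membrane skeleton through ankyrin-1 (Ank1) and protein 4.2 (Epb42), and glycophorin C (Gypc) anchors the same skeleton at another site. Lung tissue is rich in capillaries, so lung RNA holds some red cell RNA. In such bulk RNA fewer red cells and less RNA per red cell cannot be told apart.

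Promoter sequences in RefSeq (build GRCr8, which differs from the Rnor_6.0 build of the count tables) were matched for 4 of the 9 genes. A globin gene and a membrane skeleton gene are shown, because erythroid promoters are known for GATA motifs and for CACCC boxes, which GATA1 and KLF1 can bind. Each line gives the 250 bases before the annotated start, 5′ to 3′, with matches of GATAA and CACCC on either strand in capitals. The Hbb window is chr1:167663722-167663971 and the Epb42 window is chr3:128451684-128451933, both on the minus strand.
Hbb: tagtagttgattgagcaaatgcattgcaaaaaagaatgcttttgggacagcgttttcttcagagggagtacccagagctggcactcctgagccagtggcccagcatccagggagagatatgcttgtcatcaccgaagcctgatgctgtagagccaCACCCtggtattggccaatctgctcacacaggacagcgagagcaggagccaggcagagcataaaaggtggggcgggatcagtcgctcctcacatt
Epb42: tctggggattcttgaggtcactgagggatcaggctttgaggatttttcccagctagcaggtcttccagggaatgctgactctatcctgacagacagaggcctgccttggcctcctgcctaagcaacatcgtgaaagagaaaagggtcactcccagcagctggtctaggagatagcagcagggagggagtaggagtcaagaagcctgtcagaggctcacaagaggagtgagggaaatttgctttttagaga
On either strand the Hbb window held 1 CACCC and 0 GATAA, and the Epb42 window held 0 of each. GATAA is only 1 form of the GATA motif, and GATA followed by another base was not counted. Such stretches stand in lower case in both windows, among them AGATAG in that of Epb42. A count of 0 GATAA therefore does not mean that a window lacks GATA motifs. Of the other matched windows, which are not shown, that of Alas2 held 1 GATAA and 0 CACCC and that of Gypc held 0 GATAA and 1 CACCC. The Alas2 window may lie before an internal start, so its match may not be in the erythroid promoter. Of 33469 RefSeq promoter windows of that length 49.2% held CACCC and 23.5% held GATAA, so a CACCC match is common in any promoter.

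Total estimated counts ran from 9643527 to 25875985 per library. Levels are given below as CPM, counts scaled to a common library total with TMM factors within 1 table, and changes as log2 of silica over air ± SE, with p adjusted over all genes tested (edgeR quasi-likelihood test, threshold 0.05). Estimated counts divide reads between near-identical globin copies, so the values of single globin genes are uncertain. Markers of other tissues were present in some lung libraries: the summed level of 5 heart muscle markers reached 413 CPM in an air lung library at 6 months. Their part in the results was not tested.

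In lung 1 day after exposure, both globins, Alas2 and Slc4a1 fell in silica rats. Hbb read 1954, 1790, 2323, 2149, 2007 and 2414 CPM in the 6 air lungs and 1767, 1480, 1411, 1316, 1551 and 1570 CPM in the 6 silica lungs. Every silica lung lay below every air lung, although the nearest of the 2 groups were only 1767 and 1790 CPM. The means were 2106 ± 235 and 1516 ± 155 CPM (SD, n = 6 each), a log2 change of -0.47 ± 0.078 (edgeR adjusted p = 0.000926). Hba1 ran from 1927 to 2554 CPM in air (median 2275) and from 1487 to 1938 CPM in silica (median 1681). Its change was -0.44 ± 0.074 (edgeR adjusted p = 0.00125), and the groups overlapped by 1 silica lung. The changes of the alpha- and beta-globin genes differed by less than their SE.

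Alas2 read 33.7, 33.0, 39.6, 39.3, 31.5 and 38.7 CPM in air lungs and 33.8, 24.4, 23.9, 19.4, 28.0 and 29.9 CPM in silica lungs at 1 day. It changed by -0.44 ± 0.11 (edgeR adjusted p = 0.0151), and the groups overlapped at their edges. Slc4a1 was sparse, at 5.64 ± 0.879 CPM in air and 3.62 ± 0.654 CPM in silica (SD, n = 6 each), from 64 to 135 and from 38 to 59 counts per library. Its change of -0.64 ± 0.14 (edgeR adjusted p = 0.00698) was the largest fall among the members tested. In all, 4 of the 8 members that passed the filter on low counts fell and 0 rose, and 6 had an unadjusted p under 0.05, as did 27.9% of all genes. Over all 15331 genes tested 14.1% were called, 8.39% as higher and 5.72% as lower in silica. Among the members 1 had non-overlapping groups with silica lower (Hbb) and 0 with silica higher, against 2.75% and 5.04% of genes.

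The other 4 members tested in lung at 1 day did not pass the test. Gypc lay at 47.8 ± 3.17 CPM in air and 43.8 ± 1.22 CPM in silica (log2 -0.13 ± 0.043, edgeR adjusted p = 0.0677). Ahsp, at 4.69 ± 1.5 and 3.83 ± 1.31 CPM, gave -0.28 ± 0.24 (edgeR adjusted p = 0.5). Slc25a37 and Ank1 pointed the other way, with 0.27 ± 0.10 (edgeR adjusted p = 0.0895) and 0.52 ± 0.25 (edgeR adjusted p = 0.207). Ank1 was near the limit of counting, with 7 to 38 counts per air library and 18 to 25 per silica library. Epb42 was not tested: it had 5 to 26 counts per library and means of 0.717 CPM in air and 0.595 CPM in silica.

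**Figure D1:**
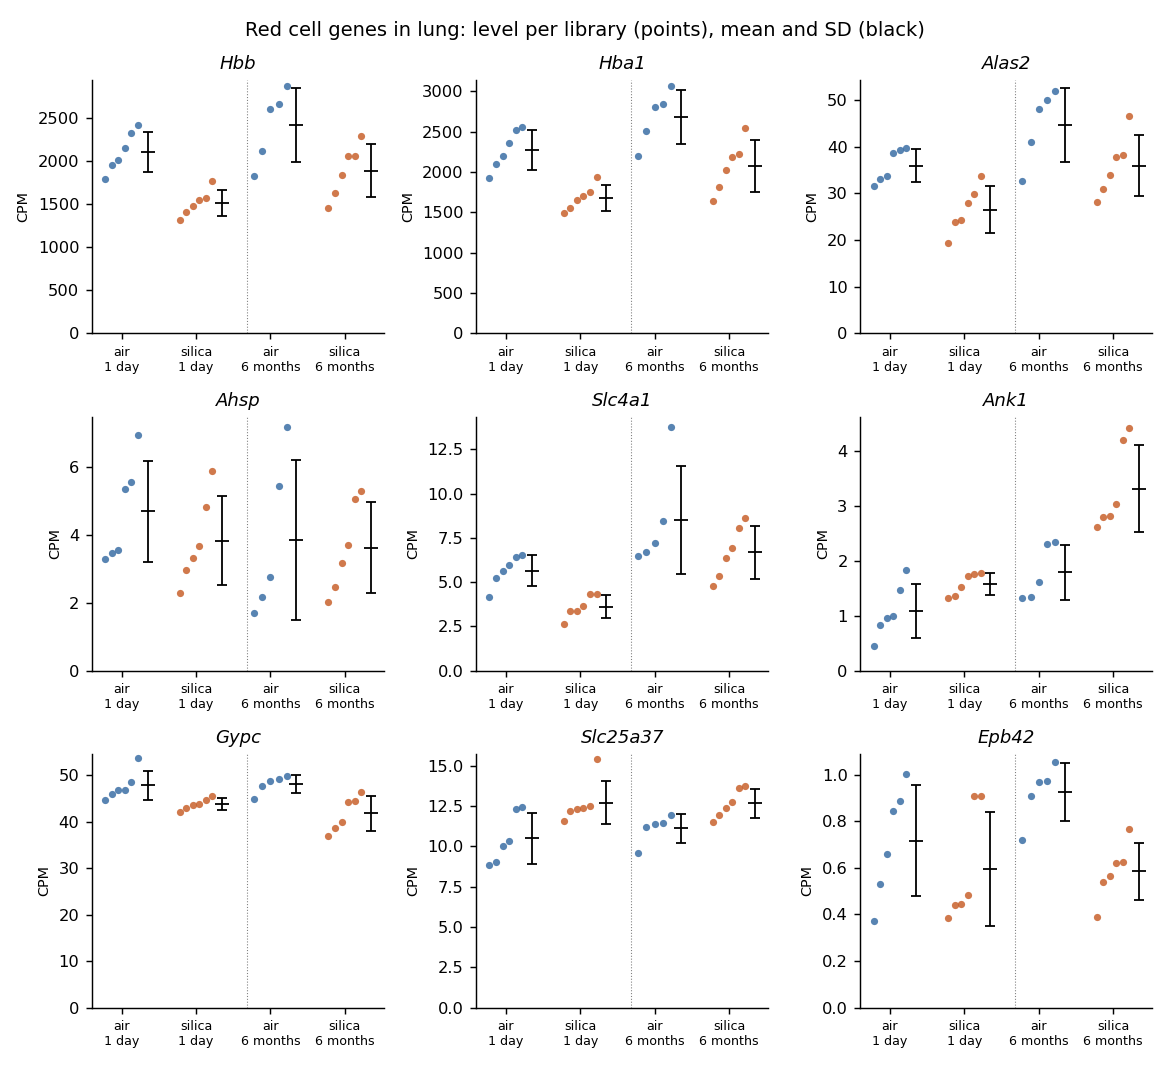
Level of each of the 9 genes in lung, in CPM on an axis from 0, with 1 point per library placed in order of value within its group (blue air, orange silica) and the mean and SD in black. Hbb at 1 day runs from 1790 to 2414 CPM in air and from 1316 to 1767 CPM in silica, and Ank1 at 6 months from 1.32 to 2.35 CPM in air and from 2.62 to 4.43 CPM in silica.

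At 6 months Hba1 and Gypc fell in silica lung and Ank1 rose, with a wider spread of the globins than at 1 day. Hba1 read 3065, 2802, 2507, 2843 and 2197 CPM in the 5 air lungs, and 1646, 2221, 1815, 2547, 2188 and 2031 CPM in the 6 silica lungs. The change was -0.37 ± 0.11 (edgeR adjusted p = 0.0334), and 2 silica lungs exceeded the lowest air lung. Hbb, with means of 2415 ± 427 CPM in 5 air lungs and 1887 ± 307 CPM in 6 silica lungs (SD), gave -0.36 ± 0.13 and missed the threshold (edgeR adjusted p = 0.0786). The Hba1 call was lost in 6 of the 11 fits that left out 1 library each: air 49, 51 or 53, or silica 58, 60 or 64, libraries being named by their animal's number (edgeR adjusted p = 0.0518 to 0.0804). The Hbb call was gained without air 54 (edgeR adjusted p = 0.0288) or silica 61 (edgeR adjusted p = 0.0435).

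Ank1 read 2.31, 2.35, 1.32, 1.35 and 1.61 CPM in air lungs at 6 months and 4.21, 2.82, 4.43, 2.62, 3.04 and 2.80 CPM in silica lungs. Every silica lung lay above every air lung, and Ank1 rose by 0.88 ± 0.21 on the log2 scale (edgeR adjusted p = 0.0140), on 16 to 32 counts per air library and 36 to 74 per silica library. The call held in 11 of 11 fits that left out 1 library. Gypc, with means of 48.1 ± 1.91 CPM in 5 air lungs and 41.8 ± 3.77 CPM in 6 silica lungs (SD), fell by 0.20 on the log2 scale (SE 0.059, edgeR adjusted p = 0.0373). That call held in 4 of 11 such fits, being lost without air 49, 51, 52 or 53, or silica 58, 60 or 64. So 1 of 9 members rose and 2 fell, and 7 had an unadjusted p under 0.05, as did 30.6% of all genes. Of all 15309 genes tested 16.2% were called, 9.85% as higher and 6.38% as lower, and non-overlapping groups were found for 6.96% of genes with silica higher (1 member, Ank1) and 3.5% with silica lower (0 members).

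The remaining members in lung at 6 months did not pass the test. Alas2 averaged 44.7 ± 7.96 CPM in 5 air lungs and 36.0 ± 6.5 CPM in 6 silica lungs (SD), with a change of -0.32 ± 0.14 (edgeR adjusted p = 0.134). It passed without air 54 (edgeR adjusted p = 0.0416) or silica 61 (edgeR adjusted p = 0.0451). Epb42, on 5 to 15 counts per library, gave -0.64 ± 0.22 (edgeR adjusted p = 0.0860), and Slc4a1 gave -0.35 ± 0.21 (edgeR adjusted p = 0.296). Slc25a37 gave 0.19 ± 0.076 (edgeR adjusted p = 0.110) and Ahsp -0.09 ± 0.37 (edgeR adjusted p = 0.899).

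The change from 1 day to 6 months was tested as a difference of the silica effects, and 0 of 9 members passed, where 1.4% of all 15786 genes did. For Hbb the effect at 6 months minus that at 1 day was 0.12 ± 0.16 (edgeR adjusted p = 0.785), for Slc4a1 0.30 ± 0.26 (edgeR adjusted p = 0.658) and for Ank1 0.37 ± 0.34 (edgeR adjusted p = 0.677). Each time has its own count table, so time and table cannot be told apart.

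Each gene was also divided by Hbb within the same lung library, so that a change shared with Hbb cancels. A gene that did not fall with Hbb is raised in the ratio by the fall of Hbb alone. The p-values of the lung ratios are thus not independent of that fall. These ratios were chosen after the values had been seen, and 32 ratios were tested over lung and blood by two-sided exact permutation tests. At 1 day the log2 ratio of Alas2 to Hbb was -5.87 ± 0.0960 in air and -5.85 ± 0.143 in silica (SD, n = 6 each; exact p = 0.786). The ratio of Hba1 to Hbb differed by 0.04 (n = 6 each; exact p = 0.173) and that of Slc4a1 by -0.17 (n = 6 each; exact p = 0.245). Ank1 to Hbb was higher in silica by 1.11 and Slc25a37 to Hbb by 0.76, each in 6 of 6 silica lungs above all air lungs (exact p = 0.00216, adjusted 0.0346 for both). Neither gene passed the edgeR test by itself at 1 day. Gypc to Hbb was higher by 0.35 (n = 6 each; exact p = 0.00649, adjusted 0.0519). At 6 months Ank1 to Hbb was higher by 1.24 in 6 of 6 silica lungs (exact p = 0.00433, adjusted 0.0462). The ratio of Slc25a37 to Hbb was higher by 0.54 (exact p = 0.0216, adjusted 0.0952), and that of Alas2 differed by 0.04 (exact p = 0.524).

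The members also differed in how their lung level stood to their blood level in rats of the same animal number, for which 21 animals had both tissues. For these shares CPM was scaled to the library total alone, without TMM factors. Blood RNA was depleted of globin and the tables are separate, so the shares are descriptions. Lung CPM of Alas2 was 0.0883% to 0.191% of blood CPM over the 21 animals, that of Slc4a1 0.108% to 0.306%, that of Epb42 0.0733% to 0.278% and that of Ahsp 0.124% to 0.602%. Rhd (a Rhesus antigen), another gene known mainly from red cells, lay in the same range, at 0.0766% to 0.239%. Ank1, at 1.12% to 7.42%, and Slc25a37, at 4.97% to 13.2%, stood higher in lung, and Gypc was more abundant in lung than in blood in all 21 animals, at 121% to 204%. Hba1 ran from 6.5% to 18.4% and Hbb from 12.2% to 105%. The 14 leukocyte markers differed widely among themselves, from Cd79a (2.05% to 25.0%) and S100a8 (3.60% to 10.8%) to Ptprc (31.3% to 59.2%) and Cd14 (271% to 1332%). Alas2, Slc4a1, Epb42 and Ahsp overlapped in range and cannot be ordered, whereas Gypc lay above the range of every other member.

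**Figure D2:**
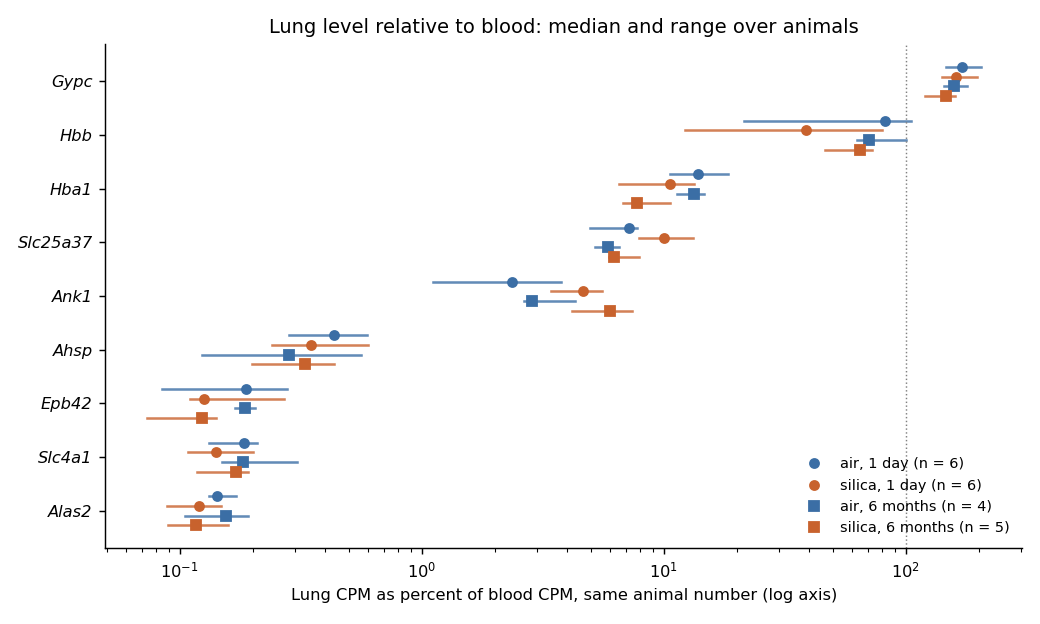
Lung CPM as a percentage of blood CPM of the same animal number, on a log axis, with the median (point) and the range (line) over the animals of each time and treatment. CPM here is without TMM factors. Alas2, Slc4a1, Epb42 and Ahsp lie below 1%, Ank1 and Slc25a37 lie higher, and Gypc lies above the dotted line at 100%.

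Blood at 1 day showed uneven globin levels that did not follow treatment. Per the labels' protocols, globin RNA was removed from blood RNA with a hybridisation kit. Hbb still read 9384, 2097, 2634, 9606, 2062 and 2480 CPM in the 6 air samples and 2095, 11889, 2341, 3789, 6933 and 3603 CPM in the 6 silica samples. High and low values occurred in both groups, and the change was 0.12 ± 0.51 (edgeR adjusted p = 0.957). Hba1 was at 16799 ± 4351 CPM in air and 17719 ± 5020 CPM in silica (SD, n = 6 each), a change of 0.08 ± 0.19 (edgeR adjusted p = 0.915). With these errors a change of Hbb in blood of the size seen in lung was not detectable.

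The ratio of Hbb to Hba1 counts shows the same unevenness within libraries. It ran from 0.833 to 1.01 over all lung libraries and from 0.104 to 0.510 over all blood libraries. Gene length is not taken into account, so the ratio is compared between libraries and not read as a ratio of molecules. Blood samples were both lower and more scattered than lung samples. Hbb, Hba1, Hba2 and Hbb-b1 together took 2.07% to 6.76% of counts in blood and 0.343% to 0.707% in lung.

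**Figure D3:**
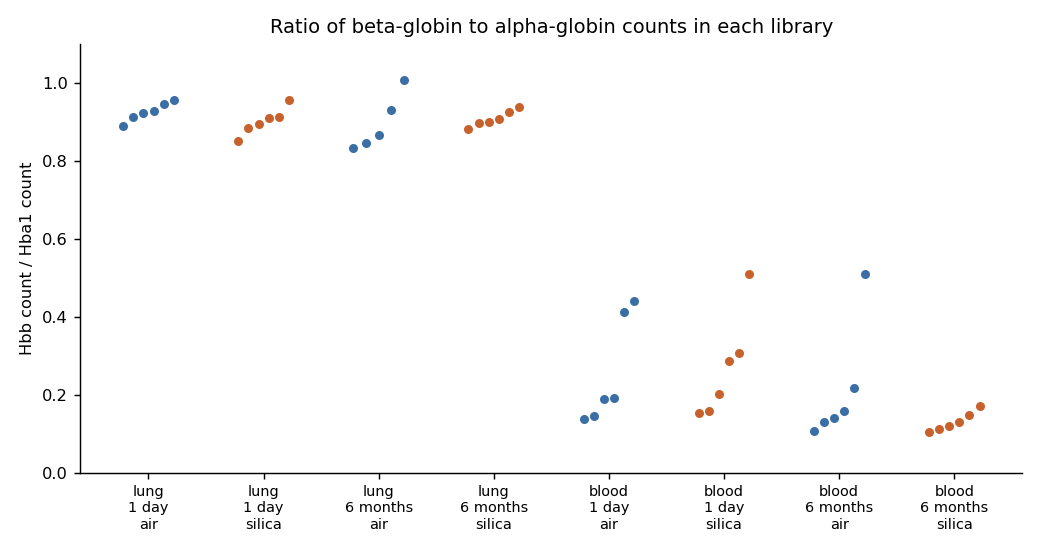
Ratio of Hbb to Hba1 estimated counts, on an axis from 0, with 1 point per library placed in order of value within each of the 8 groups (blue air, orange silica). Lung libraries lie between 0.833 and 1.01, while blood libraries lie between 0.104 and 0.510, with high samples in 3 of the 4 blood groups.

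Each of the 7 other members, which the depletion does not target, had a negative log2 change in blood at 1 day, and none passed the edgeR test. Slc4a1 came nearest, from 2400 to 4383 CPM in air (median 3162) and from 2082 to 2779 CPM in silica (median 2451). The groups overlapped, and the change was -0.41 ± 0.12 (edgeR adjusted p = 0.147). Alas2 took 2.44% ± 0.156 of all counts in air and 2.22% ± 0.125 in silica blood (SD, n = 6 each), with a change of -0.22 ± 0.11 (edgeR adjusted p = 0.423). Slc25a37 gave -0.37 ± 0.13 (edgeR adjusted p = 0.231), Ank1 -0.34 ± 0.11 (edgeR adjusted p = 0.187), Epb42 -0.28 ± 0.11 (edgeR adjusted p = 0.295) and Ahsp -0.25 ± 0.11 (edgeR adjusted p = 0.331). Gypc gave -0.10 ± 0.096 (edgeR adjusted p = 0.723). Thus 0 of 9 members were called and 5 had an unadjusted p under 0.05, as did 12.9% of all genes, while 1.4% of all 12253 genes tested were called, 1.19% as higher and 0.18% as lower. Non-overlapping groups were found for 0 members and for 1.93% of genes. DESeq2, and edgeR without normalization factors, each called 1 member, Slc4a1 (DESeq2 adjusted p = 0.0345, edgeR adjusted p = 0.0364).

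These values moved toward 0 without a few samples. Air sample 40 had the highest Alas2 (33566 CPM), Slc4a1 (4383 CPM) and Ank1 (59.5 CPM) of its group and the lowest TMM factor (0.814). In a fit chosen after seeing the data, without the 4 samples whose Hbb exceeded 5000 CPM (air 37 and 40, silica 44 and 47), Slc4a1 changed by -0.18 (edgeR adjusted p = 0.697), Alas2 by -0.03 (edgeR adjusted p = 0.963) and Gypc by 0.06 (edgeR adjusted p = 0.914). Some leukocyte RNA differed between the groups: the summed level of 14 leukocyte markers ran from 3372 to 3871 CPM in air and from 4538 to 5284 CPM in silica blood at 1 day. Of the 14 markers 0 were at 0 and only 3 rose by the edgeR test, the neutrophil genes S100a8, S100a9 and Mmp8, and the median over the 14 was 0.03, against -0.01 over all genes. Their part in the red cell values was not tested.

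**Figure D4:**
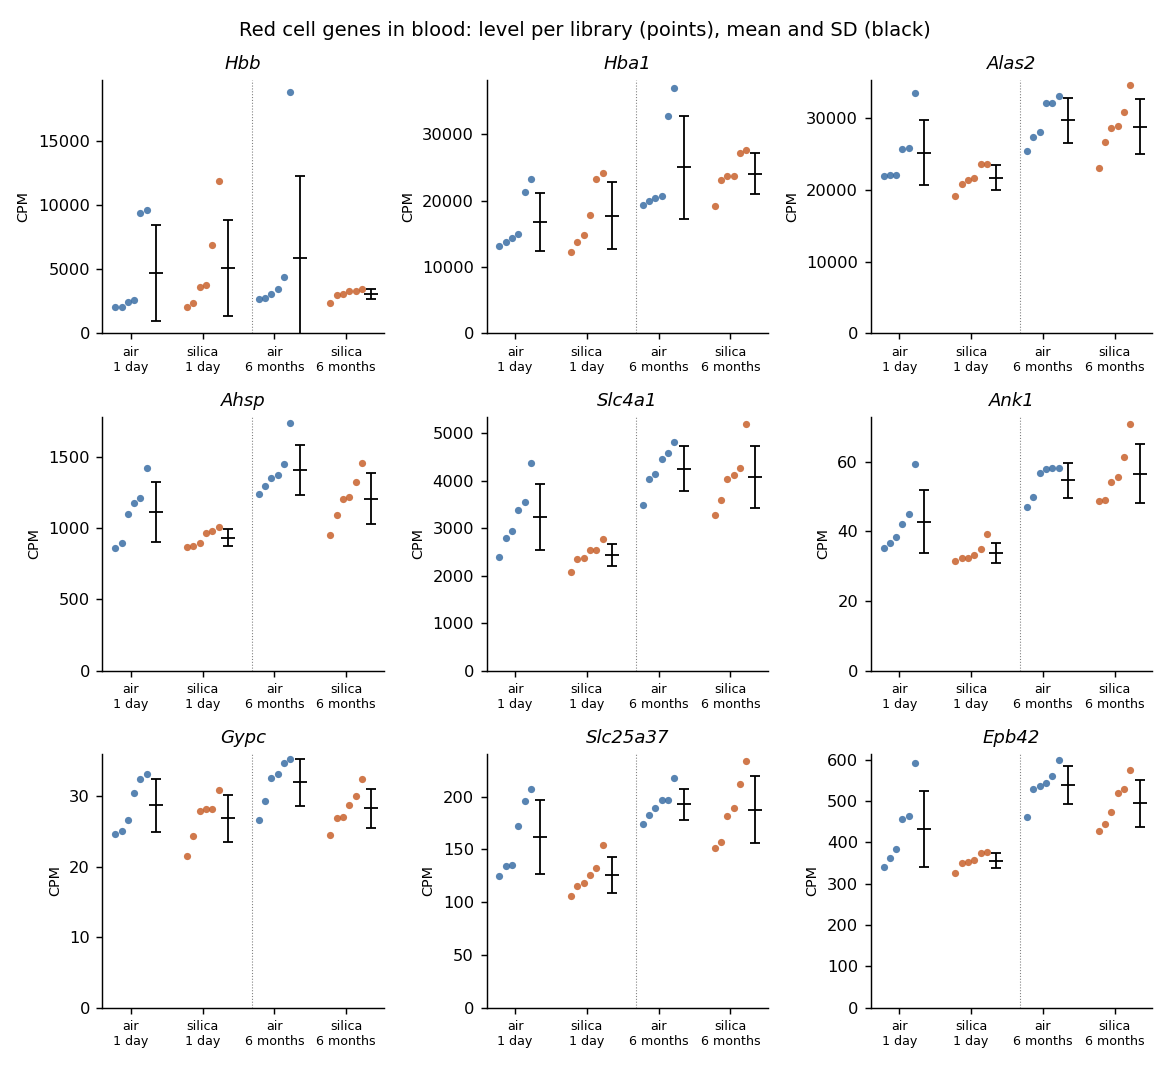
Level of each of the 9 genes in blood, in CPM on an axis from 0, with 1 point per library placed in order of value within its group (blue air, orange silica) and the mean and SD in black; the SD bar of Hbb in air at 6 months is cut at 0. At 6 months 1 air sample stands at 18830 CPM of Hbb, and the other members overlap between air and silica at both times.

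In blood at 6 months no member passed the edgeR test. Hbb read 4415, 3074, 2780, 2693, 18830 and 3462 CPM in air and 3065, 3002, 2401, 3485, 3314 and 3280 CPM in silica. The change of -0.93 ± 0.41 (edgeR adjusted p = 0.563) rested on air 55, at 18830 CPM, and without that sample it was -0.09 (edgeR adjusted p = 0.847). Alas2 was at 29699 ± 3151 CPM in air and 28833 ± 3877 CPM in silica (SD, n = 6 each; log2 -0.04 ± 0.093, edgeR adjusted p = 0.912). Ahsp gave -0.22 ± 0.10 (edgeR adjusted p = 0.563) and Gypc -0.17 ± 0.080 (edgeR adjusted p = 0.569). Hba1, Slc4a1, Ank1, Slc25a37 and Epb42 lay between -0.12 and 0.05. By edgeR 0 of 9 members were called, against 0.0086% of all 11629 genes, and DESeq2 also called 0. Non-overlapping groups were found for 0 members and for 0.378% of genes. An unadjusted p under 0.05 was found for 3 members and for 8.69% of all genes. The time difference in blood called 0 of 9 members and 0% of genes, with Ank1 nearest at 0.40 ± 0.15 (edgeR adjusted p = 0.325).

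Whether silica acted differently on the members in lung and in blood was tested directly, and 0 of 9 passed at either time, where 4.03% of genes passed at 1 day and 3.53% at 6 months. Ank1 stood nearest to the threshold at 6 months and Slc25a37 at 1 day. For Ank1 the effect in blood minus that in lung was -0.78 ± 0.29 at 1 day (edgeR adjusted p = 0.135) and -0.79 ± 0.24 at 6 months (edgeR adjusted p = 0.0607). For Slc25a37 the difference was -0.59 ± 0.18 at 1 day (edgeR adjusted p = 0.0720) and for Hba1 0.56 ± 0.22 (edgeR adjusted p = 0.171). With the animal as a block, the Hba1 difference at 6 months passed at 0.66 (edgeR adjusted p = 0.0279), against 0.34 ± 0.21 (edgeR adjusted p = 0.462) in the main fit. The block keeps only the 9 animals with both tissues, so air blood 55 and 56 were left out. They held the highest Hba1 of their group (36979 and 32750 CPM), so block and omission cannot be told apart.

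**Figure D5:**
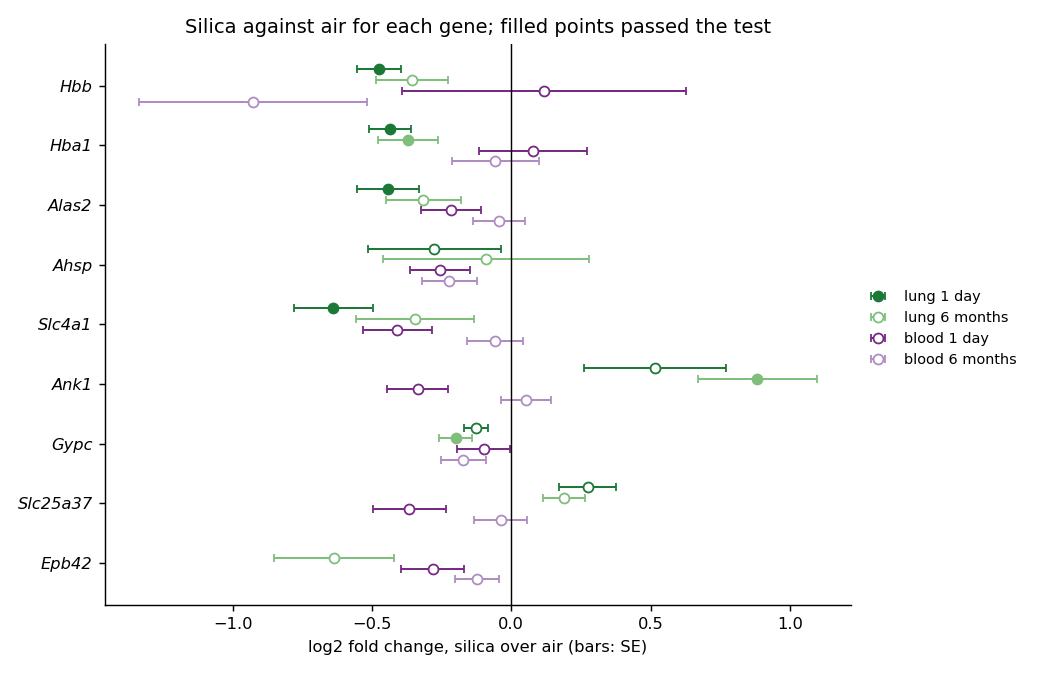
Log2 fold change of silica over air for each gene in the 4 comparisons of tissue and time, with SE as bars; filled points passed the edgeR test and open points did not. The 4 filled points of lung at 1 day (Hbb, Hba1, Alas2 and Slc4a1) lie below 0, Ank1 in lung at 6 months lies at 0.88, and no blood point is filled.

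Library-to-library variation within groups was described by correlating genes after group means were subtracted; libraries share depth and composition, so the values are descriptions. In blood, over 24 libraries and 8659 genes, Slc4a1 followed Alas2 most closely among the members (r = 0.941), then Ank1 (r = 0.885), Epb42 (r = 0.883), Ahsp (r = 0.829), Slc25a37 (r = 0.807) and Gypc (r = 0.796). The depleted globins did so less, with r = 0.368 for Hba1 and 0.297 for Hbb. The 5 genes outside the members most like Alas2 were Paip2, Riok3, Pip4k2a, Gclm and Adipor1 (r = 0.958 to 0.963). In lung, over 23 libraries and 12256 genes, Hba1 (r = 0.955) and Alas2 (r = 0.892) followed Hbb closely, and Gypc (r = 0.605) and Slc4a1 (r = 0.475) less so. Ank1 (r = 0.063), Ahsp (r = 0.058) and Slc25a37 (r = -0.040) lay near 0. The genes most like Hbb in lung were the globin copies Hbb-b1, LOC100134871, Hba2 and LOC689064 (r = 0.933 to 0.964) and then Bcar1 (r = 0.824).

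Animals with more of a red cell transcript in blood were not shown to hold more of it in lung. Of 18 relations (9 members at 2 times, 12 and 9 animals, group means subtracted) the smallest permutation p was 0.157, for Slc4a1 at 6 months (Pearson r = 0.546, Spearman rho = 0.550 with permutation p = 0.163, adjusted 0.816 and 0.957). Without the 2 animals farthest from the blood median that r was 0.488. For Alas2 at 1 day r was 0.087 (permutation p = 0.747) and rho 0.063 (permutation p = 0.854).

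The other red cell genes tested in lung moved in both directions. Of 4 other globin genes tested, 4 fell at 1 day (median -0.43, against -0.0024 over all genes) and 2 at 6 months (median -0.37, against -0.0080). Hba2, a second alpha gene, fell at 1 day from 857 ± 82.3 to 629 ± 56.1 CPM (SD, n = 6 each), with no overlap. Of 14 heme synthesis and transport genes 0 were called at 1 day (median 0.02). At 6 months 1 rose, Tmem14c, a porphyrin transporter (0.42 ± 0.039, edgeR adjusted p = 5.4e-05). Fech, whose enzyme inserts iron into a porphyrin to form heme, was at -0.18 ± 0.071 at 1 day (edgeR adjusted p = 0.116). Of 11 other membrane genes tested in lung 2 rose and 3 fell at 1 day, and 3 rose and 3 fell at 6 months. Aqp1, a water channel also made by lung endothelium, fell by 0.23 on the log2 scale at 1 day and by 0.32 at 6 months, and Tmod1, a tropomyosin-binding actin cap, by 0.30 and 0.36. Slc2a1, a glucose transporter made by many cell types, rose by 0.37 and 0.55. The silica effect in lung at 6 months minus that at 1 day passed for 1 of 12 other membrane genes tested, against 1.4% of all genes. This was Rhd, at -1.19 ± 0.25 (edgeR adjusted p = 0.0123). Among the heme genes Tmem14c passed with the opposite sign, at 0.34 ± 0.072 (edgeR adjusted p = 0.0162).

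The erythroid transcription factor genes Gata1 and Klf1 were near the limit of counting in lung, while 8 of the regulators and receptors listed could be tested at 1 day and 9 at 6 months. Gata1 stood on 2 gene lines, 1 of them at 0 in every lung library and the other at 0.412 CPM in air at 1 day, and Klf1 was at 0.603 CPM. Tfrc, a transferrin receptor gene that is not particular to red cells, rose by 0.60 ± 0.066 at 1 day (edgeR adjusted p = 3.24e-05) and by 0.41 ± 0.052 at 6 months (edgeR adjusted p = 0.00033). Among 8 such regulators and receptors tested at 1 day 2 rose (Tfrc and Zfpm1). At 6 months, of 9 tested, 1 rose (Tfrc) and 2 fell (Lmo2 and Ldb1). Of 14 late maturation genes 2 fell at 1 day (Bpgm, -0.20 and Bnip3l, -0.13) and 2 rose at 6 months (Gmpr, 0.41 and Ucp2, 0.23). Cell type markers in lung also differed between silica and air, in both directions. Endothelial markers fell in 5 of 8 at 1 day and 8 of 8 at 6 months. Their summed level ran from 4151 to 4539 CPM in air and 3752 to 4139 CPM in silica at 1 day. At 6 months it ran from 4227 to 4668 CPM in air and 3360 to 3919 CPM in silica. Of 14 leukocyte markers 5 rose and 1 fell at 1 day, and 3 rose and 1 fell at 6 months. Their summed level ran from 518 to 675 CPM in air and 649 to 998 CPM in silica lung at 1 day, and from 613 to 812 CPM and 897 to 1020 CPM at 6 months. Platelet markers, of which 4 of 8 could be tested, all lay below 0 at 1 day (1 fell, Itga2b, at -0.46; median -0.37), and at 6 months 3 of 4 did, with 0 called (median -0.30). Of 7 lung epithelial markers 1 rose and 4 fell at 1 day (median -0.20), and 2 rose and 1 fell at 6 months (median -0.14). The part of these cell types in the lung results was not tested.

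In blood the same lists gave few calls. At 1 day 1 of 13 heme genes rose, Slc25a28 (mitoferrin-2; 0.21 ± 0.048, edgeR adjusted p = 0.0486), and 0 of 16 membrane genes, 0 of 12 regulator lines and 0 of 17 late maturation genes passed. All 17 late maturation genes lay below 0 (median -0.21, against -0.01 over all genes). At 6 months all 17 also lay below 0 (median -0.10), and 0 passed. Within a time the 17 values come from the same libraries, so their shared sign is not 17 independent results. Klf1 was at -0.12 ± 0.13, Tfrc at -0.20 ± 0.090 and Fech at -0.21 ± 0.12 in blood at 1 day (edgeR adjusted p = 0.377 to 0.781).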

How the data were processed

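RNA of 47 lung and blood libraries was read from 4 deposited tables, 1 per tissue and time. Per the labels' protocols, alpha- and beta-globin messenger RNA had been removed from blood RNA, and stranded libraries were made from messenger RNA. Salmon 1.10.1 and STAR 2.6.1d stand among the tools in the submitters' processing notes, beside the build Rnor_6.0 and the trimmers Trim Galore 0.6.7 and cutadapt 3.4, without roles. The authors deposited estimated counts per gene, not normalized, which were rounded to whole numbers here. Of the columns 0 were left over, and 266 gene names stood on more than 1 line. Libraries were grouped by the labels and tested in R 4.3.3 with edgeR 4.0.16 (quasi-likelihood, TMM, minimum count 10, Benjamini-Hochberg adjustment), on all genes of a table. SE is the log2 change over the root of F. Replicates differed beyond sampling noise (chi-square per degree of freedom 3.76 to 35.3), and p-values measure the spread between animals. Alternatives were DESeq2 1.42.0, limma-voom (limma 3.58.1), RLE, upper-quartile or no factors, a minimum count of 50 or no filter, other reference genes for scaling, 4-group fits, summed gene lines, the animal as a block and leaving out single libraries. Scripts were tested on simulated data.

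All 9 members were named. From 12 other lists the 3 genes with the smallest p past the threshold could be named, and Tfrc, Gata1, Klf1, Fech and Hmox1 always; some genes of this rule are left out here. The members and lists were chosen with earlier results of these data known.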

Additional observations from a re-analysis of the deposited data

Results flagged for a closer look

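The values of each of the 9 genes in each group, 72 sets of 5 or 6 libraries, were searched for outliers by Dixon's test. In 4 of the 72 sets 1 library stood apart from the rest, where chance alone marks about 1 in 20 sets. The same libraries recur for every gene, so the sets are not independent. Hbb in air blood at 6 months was 18830 CPM in animal 55, the next being 4415 CPM. Alas2 in air blood at 1 day was 33566 CPM in animal 40, the next being 25846 CPM. Slc25a37 in silica lung at 1 day was 15.4 CPM in animal 48, the next being 12.5 CPM. Slc4a1 in air lung at 6 months was 13.8 CPM in animal 51, the next being 8.44 CPM.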

How the results depend on the processing

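The 4 lung calls at 1 day held in 9 of 9 other settings and in 12 of 12 fits without 1 library, and the count of members called ran from 4 to 5. Without 1 library, the count in lung at 6 months ran from 1 to 5, against 3 with all. Gypc there was lost without the filter on low counts (edgeR adjusted p = 0.0627), Hbb was gained with 4 groups in the fit (edgeR adjusted p = 0.0299) and Epb42 with limma-voom (adjusted p = 0.0471). Ank1 there passed in 8 of 8 other settings that tested it. In lung at 1 day Gypc passed without air 41 (edgeR adjusted p = 0.0463) and Slc25a37 with 4 groups in the fit (edgeR adjusted p = 0.0440). In blood at 1 day the count was 1 under DESeq2 and 1 without factors, against 0. Animal numbers were taken as the same animal in both tissues: same-numbered deviations correlated from -0.0887 to 0.148 at 1 day and -0.101 to 0.110 at 6 months. With that block, which at 6 months left out animals without both tissues, the count was 1 at 6 months (Hba1) and Hbb turned to 0.27 from -0.55. Air blood 55, at 18830 CPM of Hbb, was among those left out. At 1 day the count was 0, and no other call changed.

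Directions that turned were all of values without a call. Blood at 1 day: Gypc was 0.063 without 4 libraries, and leaving out 1 library moved Hba1 over -0.032 to 0.19 and Hbb over -0.32 to 0.45. Blood at 6 months: Alas2 was 0.0038 and Slc25a37 0.0075 without factors, and leaving out 1 library moved Alas2 over -0.10 to 0.018, Ank1 over -0.022 to 0.097, Hba1 over -0.12 to 0.089 and Slc25a37 over -0.11 to 0.016. Ahsp in lung at 6 months was 0.041 with limma-voom and -0.28 to 0.26 without 1 library. The blood time difference moved over -0.038 to 0.11 for Ahsp and -0.24 to 0.018 for Hba1. Without the 2 farthest animals the lung to blood r was -0.0064 for Alas2 at 1 day and -0.095 for Slc25a37 at 6 months. The cause of these turns was not tested. Counts of 5 to 74 per lung library limit Ank1 and Epb42.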

Other observations

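Of 8 genes that clear free hemoglobin and heme, 3 rose and 1 fell in silica lung at 1 day, with 4 above and 4 below 0 (median -0.006, against -0.0024 over all genes). At 6 months 4 rose and 0 fell (median 0.15, against -0.0080). Hp (haptoglobin, which binds free hemoglobin) rose from 44.7 ± 3.95 to 90.6 ± 10.1 CPM at 1 day (SD, n = 6 each), with no overlap of the groups (log2 1.02 ± 0.076, edgeR adjusted p = 1.68e-06). Hpx (hemopexin, which binds free heme) rose from 3.16 ± 0.531 to 9.58 ± 1.82 CPM (SD, n = 6 each; edgeR adjusted p = 5.85e-06), and Hmox1 (heme oxygenase 1, which degrades heme) from 47.5 ± 7.83 to 69.0 ± 6.78 CPM (SD, n = 6 each; edgeR adjusted p = 0.00178). At 6 months the log2 changes were 0.99 for Hp, 1.20 for Hpx and 1.06 for Hmox1. Cd163, the hemoglobin scavenger receptor of macrophages, was at 0.03 ± 0.14 and -0.09 ± 0.19. In blood at 1 day Hp rose by 0.43 ± 0.072 (edgeR adjusted p = 0.0112), while Hmox1 was at -0.21 ± 0.19 (edgeR adjusted p = 0.694).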
